A study of Saccharomyces cerevisiae with 4 samples.

Results

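Severe zinc limitation was compared with zinc excess on 2 of the 4 microarrays of a budding yeast (Saccharomyces cerevisiae) series. On each of these 2 arrays, LZM3 over LZM3000, RNA from cells grown in low zinc medium (LZM) with 3 µM zinc was labelled with Cy5, and RNA from cells grown in LZM with 3 mM zinc was labelled with Cy3. EDTA and citrate in LZM chelate metals. All cultures were of the wild-type strain DY1457 (Dy1457 in the labels; mating type α, ade6 can1 his3 leu2 trp1 ura3), grown for 14 to 16 h to an optical density near 0.7. The 2 arrays came from independent pairs of cultures and are called array 1 and array 2. Every spot that carried an open reading frame name was taken, with 1 mean value for all spots of a gene. This gave 5129 genes read on both arrays, out of 5295 on array 1 and 5361 on array 2. The other 2 arrays compared cells of the same strain that carried a constitutive allele of the zinc regulator, Zap1TC, behind the GAL1 promoter of plasmid pYef2 with cells that carried the empty plasmid. Both of those cultures grew with 1 µM zinc, as labelled, in a synthetic medium with 2% galactose that lacks strong chelators and is zinc-replete, and their values are used only where stated.

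Zinc is a cofactor of many yeast enzymes and a structural part of zinc finger proteins. In budding yeast the activator Zap1 senses zinc in the cell. When zinc is scarce it switches on genes for zinc uptake and for release of zinc from the vacuole. Other nutrients and stresses have their own regulators: Aft1 controls iron uptake genes, Gln3 and Gat1 control the use of poor nitrogen sources, and Hsf1 controls chaperone genes. Genes that the study listed as Zap1 targets are given here only in counts, except where a list of genes holds them.

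Values are log2 ratios of the low-zinc channel over the zinc-excess channel, so a value of 1 is a doubling. Across the 5129 genes the 2 arrays had a Pearson r of 0.94 and a Spearman rho of 0.881, which are correlations over genes and not over replicates, and the median gap between the arrays was 0.0878 log2 units. The share of spots well above background was 85.5% and 87.2% for Cy5 and 98.7% and 95.3% for Cy3 on arrays 1 and 2. The low-zinc RNA carried Cy5 on both arrays, so an effect of dye on a spot and an effect of zinc cannot be told apart. Of the genes that mark mating type α, MF(ALPHA)1, MF(ALPHA)2, STE3 and SAG1 were all read well above background in both channels on both arrays. Of the a-specific markers only STE6 was read on both arrays, with its Cy3 signal not well above background on either. CAN1, HIS3, LEU2, TRP1 and URA3 gave signal in both channels and ADE6 was not read; a spot cannot tell a mutant allele from the wild type.

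Under zinc limitation 238 genes passed the study's rule for a rise, which is 4.64% of the genes; the rule asks for a mean of 1.5-fold or more and for 1.4-fold or more on both arrays. The same rule turned downwards was passed by 99 genes, or 1.93%. In limma's test, which took its error from the spread of all 4 arrays, 1317 genes (25.7%) were called higher and 1276 genes (24.9%) lower, the threshold being a p of 0.05 after Benjamini-Hochberg adjustment over all genes. These shares are the background for the counts of every gene list below. With array 1 or array 2 left out (written below as without replicate 1 or 2) the fit had less to go on, and called 980 or 1013 genes higher and 829 or 903 lower. Most of these changes were small. The median gene called higher was at 0.33 on the log2 scale, or 1.26-fold, and the median gene called lower at -0.30, or 1.23-fold lower. Large rises outnumbered large falls: 83 genes were called higher with a mean of at least 2-fold and 23 called lower, 21 against 3 at 4-fold, and 8 against 1 at 8-fold. All 238 and all 99 genes of the fold rule were also called by limma. Of the 238, 53 were on the study's own target tables and 185 were not. Of the 99, only ADH1 and ADH3 were among the genes the study names as targets. The rule itself fixes that these genes have the same sign on both arrays in the plot of one array against the other.

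**Figure D1:**
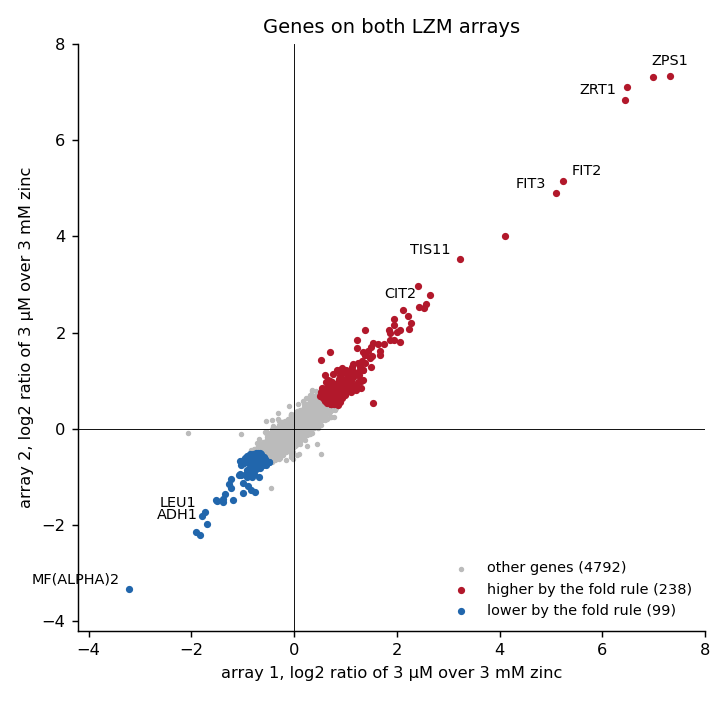
Each point is 1 of the 5129 genes, with the log2 ratio of 3 µM over 3 mM zinc on array 1 (horizontal axis) and array 2 (vertical axis). The 238 genes higher by the fold rule are red, the 99 lower genes are blue and the other genes are grey; the highest gene stood at 7.32 and the lowest, MF(ALPHA)2, at -3.28.

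The 20 largest rises outside the target tables were led by genes of iron uptake, and the 20 largest falls by mating genes, a chaperone-associated gene and enzymes of alcohol and leucine metabolism. Of the 20 rises, FIT2, FIT3, ARN2, FRE4, FET3, FRE1, SIT1, FRE3 and FTR1 belong to iron uptake, CTR1 to copper uptake, and DIP5 and GAP1 to amino acid uptake. The rest included CIT2, the peroxisomal citrate synthase, at 2.57 and 2.6 on arrays 1 and 2, and TFS1, an inhibitor of carboxypeptidase Y, at 1.95 and 2.16. These were rises of 5.99-fold (limma adjusted p = 2.18e-08) and 4.15-fold (adjusted p = 3.07e-08). AQY2, an aquaporin, stood at 1.63 and 1.76. Its zinc-excess signal was not well above background on either array, which makes it at least 3.16-fold higher. The AQY2 gene overlaps YLL053C, a study target, in the reference, so that spots for the pair cannot be fully told apart. PRY1, a secreted sterol-binding protein, had 1.75 and 1.76. The 2 genes of the set named only by their reading frame, YLR162W at 1.22 and 1.85 and YDL124W at 1.38 and 1.53, completed it.

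Among the 20 largest falls, GIS2, a zinc-knuckle protein that binds mRNA, had -1.38 and -1.52 and fell 2.73-fold (limma adjusted p = 1.91e-07). YGR035C had -1.5 on each array. SFG1, a putative transcription factor of superficial growth, fell 2.54-fold with log2 ratios of -1.34 and -1.35 (adjusted p = 1.23e-07). COG5, a subunit of the Golgi tethering complex, stood at -1.19 and -1.49 and NRD1, an RNA-binding protein of transcription termination, at -0.99 and -1.13. Of these genes COG5 was the least even between the arrays. The widest gap among the 20 falls was that of TPO4, a polyamine exporter, with -0.75 and -1.31.

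**Figure D2:**
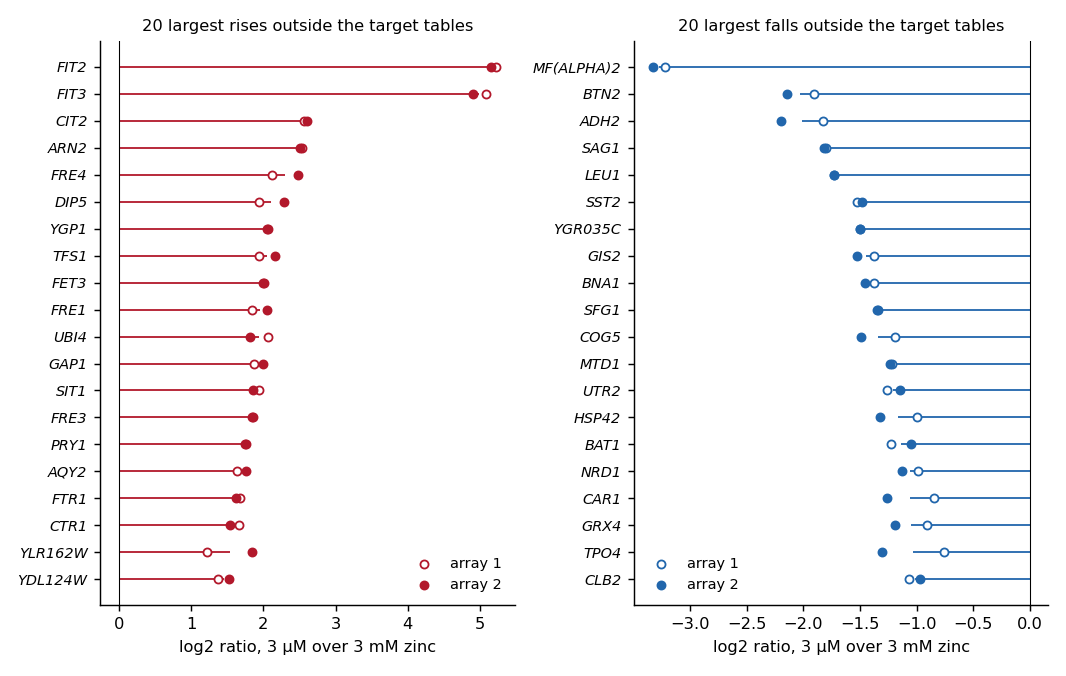
Log2 ratio of 3 µM over 3 mM zinc for the 20 largest rises (left, red) and the 20 largest falls (right, blue) outside the study's target tables; open points are array 1, filled points array 2, and lines run from 0 to the mean. The rises reach 5.19 (FIT2) and the falls -3.28 (MF(ALPHA)2).

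Genes of iron uptake rose together. Of 27 members of the iron regulon read on both arrays, 21 were called higher, 3 lower and 3 were not called, and 18 passed the fold rule upwards. Their median was 0.97, against -0.000664 over all genes. FIT2 and FIT3 encode cell wall mannoproteins that hold iron-siderophore complexes at the surface. FIT2 had 5.22 and 5.15 on arrays 1 and 2, and FIT3 had 5.09 and 4.90. These were rises of 36.5-fold (limma adjusted p = 2.17e-09) and 31.9-fold (adjusted p = 1.35e-10), and the zinc-excess signal of FIT2 was well above background on only 1 of the 2 arrays. FIT1, the third of the family, stood far lower at 0.39 and 0.50, at least 1.32-fold higher since its zinc-excess signal was not well above background.

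Reductase, oxidase and transporter genes of iron uptake were among those that rose. FRE1, the main surface ferric and cupric reductase, had 1.85 and 2.06 and rose 3.87-fold (limma adjusted p = 3.04e-08). FRE3 and FRE4, reductases of siderophore-bound iron, rose 3.61-fold with log2 ratios of 1.86 and 1.85, and 4.91-fold with log2 ratios of 2.12 and 2.47. FRE2 was less even, with 0.52 and 1.42. The multicopper oxidase FET3 and its partner permease FTR1 form the high-affinity iron uptake complex. FET3 had 2.0 and 2.01 and rose 4.01-fold (adjusted p = 3.13e-08), and FTR1 had 1.67 and 1.63 and rose 3.13-fold (adjusted p = 3.13e-08). Of the siderophore transporters, ARN2 rose most, 5.75-fold with log2 ratios of 2.53 and 2.51, followed by SIT1 at 3.73-fold with log2 ratios of 1.95 and 1.85. FRE3, FIT2 and FIT3 lie side by side in the reference's gene order. TIS11, which binds and destabilises mRNAs of iron-using proteins and is on the study's tables, had 3.22 and 3.52. Without it the median of the list was 0.96.

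Not every gene of iron metabolism moved upwards. ISU2, a scaffold for iron-sulfur clusters, had -0.62 and -0.64 and fell 1.54-fold (limma adjusted p = 3.15e-05), while its paralog ISU1 had 0.04 on each array. The other members called lower were FRE5, at -0.16 and -0.32, and BNA2, a heme-dependent dioxygenase of tryptophan, at -0.15 and -0.46 with its low-zinc signal not well above background; neither was called without replicate 2. Outside the list, GRX4, a glutaredoxin that takes part in iron sensing, had -0.91 and -1.19 and fell 2.06-fold (adjusted p = 5.32e-06). Its paralog GRX3 stood at 0.27 and 0.30. GRX5, a mitochondrial glutaredoxin of cluster assembly, had -0.28 and -0.30.

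In copper homeostasis, 5 of 10 members read were called higher and 3 lower, with a median of 0.17. CTR1, the plasma membrane copper importer, had 1.67 and 1.54 and rose 3.04-fold (limma adjusted p = 7.73e-08). CTR2, which releases copper from the vacuole, had 0.69 and 0.76, a rise of 1.65-fold (adjusted p = 1.36e-05). In contrast, COX17, the copper chaperone for cytochrome oxidase, fell 1.45-fold with log2 ratios of -0.53 and -0.54. CRS5, a metallothionein, and CUP2, the activator of metallothionein genes, had means of 0.50 and 0.46.

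The list of zinc transport and sensing held the highest gene of all 5129, ZPS1, at a mean of 7.32. Of 16 genes of zinc transport and sensing, 15 were called higher and 1 lower (none lower without either replicate), with a median of 0.93, and 10 of the 16 are targets of the study, so this count is not independent of its choice of targets. The 6 others had a median of 0.36. Of 26 enzymes that use zinc, 5 were called higher and 5 lower, which is 19.2% each, against 25.7% and 24.9% of all genes. Their median was 0.00405 (-0.05 without replicate 1 and 0.04 without replicate 2), and 9 members were above 0 and 11 below 0 on both arrays. These counts depended on the arrays: without replicate 1 none was called higher and 9 lower, and without replicate 2 there were 3 and 3. SOD1, the abundant copper- and zinc-dependent superoxide dismutase, had 0.00 and 0.16 and was not called.

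The list of zinc enzymes held 3 genes lower by the fold rule, all alcohol dehydrogenases. ADH1, the main enzyme that makes ethanol, had -1.70 and -1.98 and fell 3.59-fold (limma adjusted p = 1.23e-07). ADH2, which uses ethanol and is closely similar to ADH1 in sequence, had -1.83 and -2.20 and fell 4.05-fold (adjusted p = 2.96e-06). Spots for a pair this similar may share signal. ADH3, the mitochondrial form, fell 1.92-fold with log2 ratios of -0.94 and -0.95 (adjusted p = 3.62e-06). ADH4, a dehydrogenase of another family and one of the study's targets, rose 16.6-fold with log2 ratios of 4.10 and 4.0 (adjusted p = 5.23e-11).

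Ahead of those enzymes in the pathway, glycolysis genes leaned upwards. Of 11 upper glycolysis genes, from hexose kinases to triose phosphate, 7 were called higher and none lower, with a median of 0.24. Without replicate 1 these were 2 higher and 1 lower, and without replicate 2 they were 8 and 1. The lower ones were the glucokinase gene GLK1, at 0.45 and -0.31 on arrays 1 and 2, and its paralog EMI2, at -0.41 and -0.01, neither of which was called over both arrays. HXK1, a hexokinase, had 0.75 and 0.80 and rose 1.71-fold (limma adjusted p = 2.35e-05). FBA1, the zinc-dependent aldolase of yeast, had 0.39 and 0.18 and rose 1.22-fold (adjusted p = 0.00635), a call lost without replicate 1. Of 10 lower glycolysis genes 7 were called higher and 1 lower (none lower without either replicate), with a median of 0.44, or 0.20 without the 3 that are study targets. PGK1, phosphoglycerate kinase, had 0.91 and 0.64. GPM1, phosphoglycerate mutase, had 0.65 and 0.58. TDH1 stood at 0.79 and 0.80 and the enolase genes ENO1 and ENO2, near copies of each other, at means of 0.70 and 0.66. TDH1, ENO1 and ENO2 are the 3 study targets.

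After pyruvate the genes diverged. PDC1, the main pyruvate decarboxylase, had -0.34 and -0.33 and fell 1.26-fold (limma adjusted p = 0.00231). PDC5, its close copy, was at -0.36 and -0.39. GPD1, the first enzyme of glycerol synthesis, fell 1.79-fold with log2 ratios of -0.80 and -0.88 (adjusted p = 6.42e-06), while GPP2, glycerol phosphatase, rose 1.43-fold with log2 ratios of 0.63 and 0.39 (adjusted p = 0.000511). MPC2, a subunit of the carrier that brings pyruvate into mitochondria, had 1.10 and 1.0 and rose 2.07-fold (adjusted p = 1.57e-06). Its partner MPC1 stood at 0.11 and -0.05 and was not called. Among sugar carriers HXT4 rose 2.26-fold with log2 ratios of 1.35 and 1.01, and HXT3 2.07-fold with log2 ratios of 1.09 and 1.02. HXT6 and HXT7, which are nearly identical, had means of 0.89 and 0.92. HXT2 was lower on both arrays, at -0.16 and -0.66, and was not called without replicate 2.

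In the tricarboxylic acid cycle 7 of 22 genes were called higher and 5 lower (31.8% and 22.7%, against 25.7% and 24.9% of all genes), with a median of 0.12; without replicate 1 these were 4 and 3, and without replicate 2 they were 7 and 3. CIT1, mitochondrial citrate synthase, had 1.02 and 1.22 and rose 2.17-fold (limma adjusted p = 2.24e-06). LSC2, a subunit of succinyl-CoA ligase, rose 1.58-fold with log2 ratios of 0.64 and 0.69. Of the steps between them, ACO1, the iron-sulfur enzyme aconitase, was at -0.09 and 0.03 and IDH1, of isocitrate dehydrogenase, at 0.14 and 0.01, and neither was called. SDH2, the iron-sulfur subunit of succinate dehydrogenase, fell 1.35-fold with log2 ratios of -0.46 and -0.41 (adjusted p = 0.00139). MAE1, malic enzyme, fell 1.68-fold with log2 ratios of -0.83 and -0.66.

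Of 24 respiratory chain genes 6 were called higher (25%) and 9 lower (37.5%), against 25.7% and 24.9% of all genes, and the median of -0.10 became -0.03 without replicate 1. CYC1, cytochrome c, had -1.04 and -0.66 and fell 1.81-fold (limma adjusted p = 0.000108). CYT1, cytochrome c1, fell 1.48-fold with log2 ratios of -0.70 and -0.44, and CYT2, which attaches heme to it, 1.53-fold with log2 ratios of -0.55 and -0.68. COX4 and COX5A, subunits of cytochrome oxidase, went the other way with means of 0.38 and 0.37. HAP4, the regulatory subunit of the activator of respiratory genes, fell 1.30-fold with log2 ratios of -0.37 and -0.39 (adjusted p = 0.00147). Of 12 ATP synthase genes 7 were called higher and none lower, with a median of 0.25; ATP1, its alpha subunit, had 0.66 and 0.46.

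**Figure D3:**
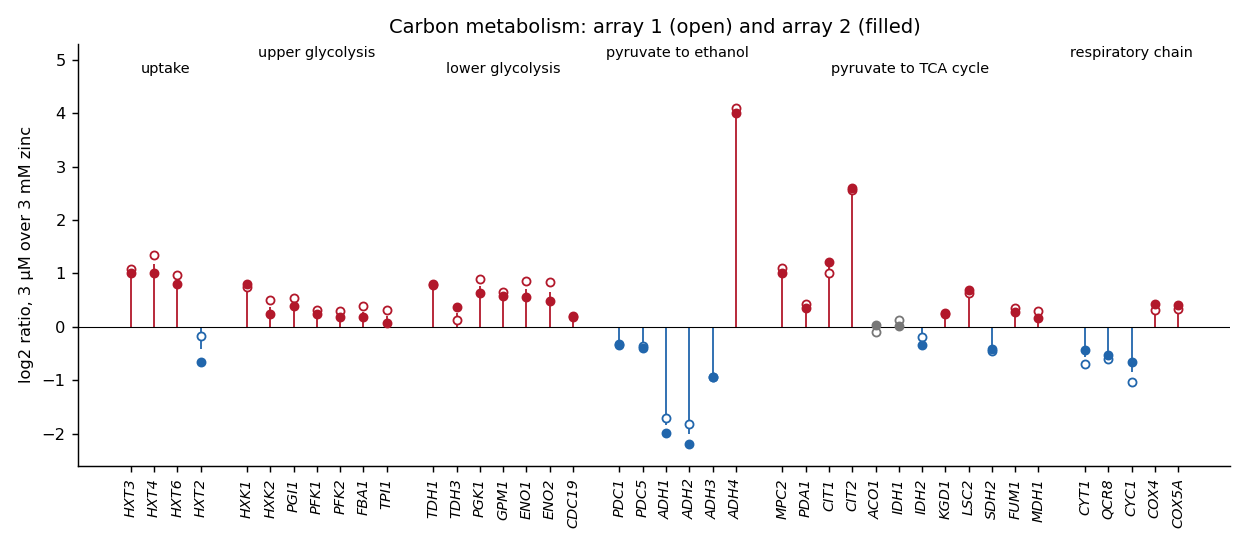
Log2 ratio of 3 µM over 3 mM zinc along carbon metabolism, from sugar uptake to the respiratory chain; open points are array 1, filled points array 2, lines run from 0 to the mean, and red, blue and grey mark genes called higher, lower or not called by limma. The glycolysis genes shown lie above 0, ADH1 to ADH3 between -0.94 and -2.20, and CIT1 and CIT2 above 1. The genes shown are a selection, made after their values were seen. In the full lists, 3 of 11 upper and 1 of 10 lower glycolysis genes were below 0 on both arrays.

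Genes for the uptake and use of nitrogen sources rose. Of 29 nitrogen catabolite genes, which are held low when preferred nitrogen sources are plentiful, 21 were called higher and 2 lower, with a median of 0.53, and 25 were above 0 on both arrays. DIP5, the permease for glutamate and aspartate, had 1.93 and 2.29 and rose 4.32-fold (limma adjusted p = 9.31e-08). GAP1, the general amino acid permease, had 1.87 and 1.99 and rose 3.82-fold (adjusted p = 7.93e-08). MEP2, the high-affinity ammonium permease, rose 2.44-fold with log2 ratios of 1.34 and 1.23. PUT4, the proline permease and a study target, rose 2.37-fold with log2 ratios of 1.15 and 1.34. DAL5, the allantoate permease, had 0.71 and 1.61 and was at least 2.16-fold higher, since its zinc-excess signal was not well above background.

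Enzymes of ammonium assimilation were higher in part. GLN1, glutamine synthetase, had 1.07 and 0.78 and rose 1.90-fold (limma adjusted p = 3.12e-05), and GDH1, glutamate dehydrogenase, had 0.92 and 0.70 and rose 1.76-fold (adjusted p = 3.4e-05). GLT1, glutamate synthase, was at 0.08 and 0.26 and was not called. The members called lower were CAR1, arginase, at -0.84 and -1.27, a fall of 2.08-fold (adjusted p = 1.71e-05), and URE2, which holds Gln3 in the cytoplasm, at -0.25 and -0.21, a call lost without either replicate. AGP1 and BAP3, permeases for many and for branched-chain amino acids, had means of 0.80 and 0.82.

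Amino acid synthesis did not move as 1 block. The branched-chain pathway stood lowest: of 13 genes 6 were called lower and 1 higher, with a median of -0.16. LEU1, an iron-sulfur enzyme of leucine synthesis, had -1.73 on both arrays and fell 3.32-fold (limma adjusted p = 2.46e-08). BAT1, the mitochondrial branched-chain transaminase, had -1.23 and -1.05 and fell 2.20-fold (adjusted p = 1.04e-06), whereas the cytosolic enzyme BAT2 had 0.51 and 0.39 and rose 1.37-fold (adjusted p = 0.000334). ILV6, the regulatory subunit of acetolactate synthase, fell 1.70-fold with log2 ratios of -0.86 and -0.68. Its catalytic subunit ILV2 had 0.10 on each array and was not called. ILV3, which also holds an iron-sulfur cluster, was at -0.16 and -0.17 and was not called.

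In sulfate assimilation and methionine synthesis, 11 of 33 genes were called higher (33.3%) and 7 lower (21.2%), against 25.7% and 24.9% of all genes. Their median was 0.02. Without replicate 1 the first count was 6 and the median -0.03. MET14, adenylylsulfate kinase, had -1.06 and -0.95 and fell 2.0-fold (limma adjusted p = 1.81e-06). MET16, which reduces the activated sulfate, fell 1.82-fold with log2 ratios of -1.06 and -0.67. CYS3, cystathionine gamma-lyase, fell 1.72-fold with log2 ratios of -0.90 and -0.67. Uptake genes were higher: SAM3, the S-adenosylmethionine permease and a study target, had 1.37 and 1.36 and rose 2.58-fold (adjusted p = 1.95e-07), and the sulfate permease SUL2 had 0.39 and 0.50. Without SAM3 the median of the list was -0.006. MET30, a ubiquitin ligase subunit that restrains the pathway's activator, had 0.66 and 0.62.

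Arginine synthesis showed 4 of 9 genes higher and 2 lower. ARG4, argininosuccinate lyase, had 0.96 and 0.95 and rose 1.93-fold (limma adjusted p = 3.38e-06), and CPA1, of carbamoyl phosphate synthase, rose 1.64-fold with log2 ratios of 0.70 and 0.72. ARG1 and ARG3 had means of -0.33 and -0.31; the call of ARG3, with -0.56 and -0.06, was lost without replicate 1. ARO1, the multifunctional enzyme of aromatic synthesis, rose 1.64-fold with log2 ratios of 0.69 and 0.73. Of 14 aromatic synthesis genes 5 were higher (3 without replicate 1) and 4 lower, among the latter ARO10, a decarboxylase of aromatic keto acids, which fell 1.59-fold with log2 ratios of -0.60 and -0.74. MTD1, the NAD-dependent dehydrogenase of methylene-tetrahydrofolate, fell 2.34-fold with log2 ratios of -1.22 and -1.24 (adjusted p = 2.55e-07). In the same folate pathway ADE3 had 0.77 and 0.79 and rose 1.71-fold.

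More genes of nucleotide synthesis were called higher than lower. Of 20 purine genes 11 were called higher and 2 lower, with a median of 0.21 with or without the 1 study target among them. Of 14 pyrimidine genes 7 were called higher and 3 lower. Their median was 0.15, but 0.04 without URA10, the 1 study target among them. The lower purine genes were 1 without replicate 2, and the lower pyrimidine genes 1 without replicate 1. URA2, the first enzyme of the pyrimidine pathway, had 1.25 and 1.17 and rose 2.32-fold (limma adjusted p = 4.18e-07). URA8, a CTP synthase, rose 1.96-fold with log2 ratios of 0.93 and 1.01. URA1, dihydroorotate dehydrogenase, rose 1.81-fold with log2 ratios of 0.91 and 0.81. ADE16, of the last purine steps, had 0.61 and 0.57. In NAD and vitamin synthesis 8 of 32 genes were called higher (25%) and 9 lower (28.1%), near the 25.7% and 24.9% of all genes, with 4 higher and 7 lower without replicate 1 and 4 and 3 without replicate 2. BNA1, an iron-dependent dioxygenase of NAD synthesis from tryptophan, had -1.38 and -1.46 and fell 2.67-fold (adjusted p = 5.14e-07). BIO5, a permease for a biotin precursor, rose 1.92-fold with log2 ratios of 0.88 and 0.99, and THI7, the thiamine permease, rose 1.74-fold with log2 ratios of 0.85 and 0.75.

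Chaperone genes fell. Of 27 heat shock genes, mostly of the cytosol with some of mitochondria, 18 were called lower and 3 higher, with a median of -0.33, and 21 were below 0 on both arrays. BTN2, which gathers misfolded proteins, had -1.91 and -2.15 and fell 4.08-fold (limma adjusted p = 2.75e-08). HSP42, a small heat shock protein that sequesters aggregates, had -1.0 and -1.33. Its low-zinc signal was not well above background on either array, so that it was at least 1.76-fold lower. HCH1, a relative of the Hsp90 activator AHA1, fell 1.99-fold with log2 ratios of -1.03 and -0.96 (adjusted p = 1.54e-06). MDJ1, a mitochondrial co-chaperone, fell 1.72-fold with log2 ratios of -0.74 and -0.83 (adjusted p = 9.94e-06).

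The Hsp90 genes and helpers followed at smaller size. HSP82 had -0.45 and -0.61 and HSC82 -0.30 and -0.37, falls of 1.45-fold (limma adjusted p = 0.000151) and 1.26-fold (adjusted p = 0.00145). CPR6 and STI1, which bind Hsp90, had means of -0.74 and -0.58. Among Hsp70 genes SSA1 fell 1.20-fold, a call lost without replicate 2, while SSA2 at -0.04 and -0.19 and SSA4 at 0.05 and 0.26 were not called. HSF1, the gene for the regulator, had -0.17 and 0.09. The exception at the top of the list was HSP26, another small heat shock protein and a study target, with 1.37 and 2.06. It was at least 3.08-fold higher, its zinc-excess signal not being well above background.

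Stress and stationary-phase genes did not share the fall of the chaperones. Of 24 read, 11 were called higher and 6 lower, with a median of 4.04e-05 (0.06 without replicate 1 and 0.03 without replicate 2), and 4 of the 24 are targets of the study. HSP12, a membrane-protecting protein on the study's tables, had 2.40 and 2.97 and was at least 6.19-fold higher. YGP1, a secreted glycoprotein made in stationary phase, had 2.07 and 2.05 and rose 4.16-fold (limma adjusted p = 7.36e-09). SPI1, a cell wall protein of weak acid resistance, rose 2.22-fold with log2 ratios of 1.30 and 1.0. ALD3, an aldehyde dehydrogenase of stress and a study target, stood at 0.60 and 1.13.

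In protein breakdown UBI4, the polyubiquitin gene, had 2.07 and 1.81 and rose 3.83-fold (limma adjusted p = 5.44e-08), and CDC48, which extracts ubiquitin-tagged proteins, had 1.07 and 0.83 and rose 1.93-fold (adjusted p = 6.87e-06). The proteasome list they were placed in did not follow: of its 35 genes 4 were called higher and 10 lower, with a median of -0.09 and 22 below 0 on both arrays, and the 10 became 6 without replicate 1 and 4 without replicate 2, where the median was -0.05. PUP3, a core subunit, fell 1.42-fold, and RPN4, the activator of proteasome genes, fell 1.33-fold with a log2 ratio of -0.41 on each array. Vacuolar proteases and autophagy genes had 11 of 20 called higher and 2 lower (none lower without replicate 2), with 5 of the 20 being study targets. CPS1, a carboxypeptidase, rose 2.22-fold with log2 ratios of 1.15 and 1.16 (adjusted p = 4.18e-07). PEP4, the protease that activates the others and a study target, rose 1.78-fold with log2 ratios of 0.87 and 0.79 (adjusted p = 5.17e-06). Without the targets the median of that list was 0.01.

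Of 33 genes of folding in the endoplasmic reticulum (ER), 14 were called higher and 4 lower, with a median of 0.12, and these were 9 and 0 without replicate 1 and 11 and 2 without replicate 2. HAC1, the activator of the unfolded protein response, had 0.98 and 0.72 and rose 1.81-fold (limma adjusted p = 2.25e-05). KAR2, the ER chaperone it controls, had 0.39 and 0.32 and rose 1.28-fold (adjusted p = 0.00106). INO1, inositol phosphate synthase, was uneven, with 1.54 and 0.54. In redox defence 6 of 31 genes were called higher (19.4%) and 9 lower (29.0%), against 25.7% and 24.9% of all genes, the 9 being 6 without replicate 1 and 6 without replicate 2. TSA1, the main peroxiredoxin and a study target, rose 2.16-fold with log2 ratios of 1.15 and 1.07. GSH2, glutathione synthetase, fell 1.44-fold with log2 ratios of -0.54 and -0.51. OYE3, a flavin oxidoreductase, had 0.66 and 0.71. It was at least 1.54-fold higher, its zinc-excess signal not being well above background.

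Genes for the mitochondrial ribosome were lower. Of 65 read, 36 were called lower and 3 higher, and 53 were below 0 on both arrays against 2174 of the 5129 genes. Their median was -0.21, so the size was small. MRP4 had -0.78 and -0.64 and fell 1.64-fold (limma adjusted p = 3.71e-05), MRPS17 had -0.68 on each array and fell 1.6-fold (adjusted p = 1.8e-05), and MRPL39 fell 1.59-fold with log2 ratios of -0.78 and -0.56. The 36 became 22 without replicate 1 and 29 without replicate 2, and the 3 became 2 and 1. The median stayed between -0.26 and -0.18 over all alternatives of processing.

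Cytosolic ribosomal proteins showed a smaller lean. Of 55 small-subunit genes 16 were called lower (29.1%, near the 24.9% of all genes) and 5 higher (9.09%, against 25.7%), with a median of -0.10. Of 76 large-subunit genes 27 were lower (35.5%) and 13 higher (17.1%), with a median of -0.09, or -0.05 without replicate 1. Without replicate 1 the lower calls were 9 and 16, and without replicate 2 they were 13 and 23; the 5 became 3 without replicate 1. RPS15 was the lowest, with -0.97 and -0.71, a fall of 1.79-fold (limma adjusted p = 1.78e-05). RPL1A and RPL1B, near-identical copies, had means of 0.58 and 0.56. Many ribosomal genes come in such pairs, whose spots may share signal. Translation factors leaned upwards, with 15 of 36 called higher and 5 lower (3 without replicate 1) and a median of 0.15. Elongation factor genes TEF1 and TEF2 had means of 0.87 and 0.79 and EFT1 and EFT2 of 0.83 and 0.85, each again a pair of like copies. TEF4, a subunit of the exchange factor of TEF1, fell 1.63-fold with log2 ratios of -0.77 and -0.64. Of 123 ribosome biogenesis factors 35 were higher (28.5%) and 26 lower (21.1%), near the 25.7% and 24.9% of all genes, and without replicate 1 these were 22 and 14. Genes of the RNA polymerases had 5 of 29 higher (17.2%, and 3 genes without replicate 1) and 9 lower (31.0%).

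Enzymes and proteins of the cell wall rose. Of 30 genes of glucan and chitin enzymes 20 were called higher and 3 lower, with a median of 0.28, and of 34 cell wall proteins 19 and 6, with a median of 0.28. The cell wall protein list is led by FIT2 and FIT3, which are counted above in the iron regulon too. It also holds 4 study targets, without which its median was 0.23. EXG1, the main exo-glucanase, had 1.24 and 1.11 and rose 2.26-fold (limma adjusted p = 6.87e-07). FKS1, a subunit of glucan synthase, had 0.65 and 0.63 and rose 1.56-fold (adjusted p = 3.45e-05). BAG7, a study target and a regulator of the Rho1 GTPase that controls it, had 0.85 and 0.49. UTR2, which links chitin to glucan, went against the list with -1.26 and -1.15, a fall of 2.31-fold (adjusted p = 2.51e-06).

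In the glycosylation list 13 of 44 genes were called higher and 7 lower (8 and 4 without replicate 1, 9 and 4 without replicate 2), which is 29.5% and 15.9% against 25.7% and 24.9% of all genes, with a median near 0; MNT2 and MCD4, the leading members, had means of 2.24 and 0.89. Both MNT2 and MCD4 are study targets. OCH1, which starts the outer mannan chain, fell 1.55-fold with a log2 ratio of -0.63 on each array (limma adjusted p = 2.85e-05). Lipid genes leaned upwards: 12 of 27 phospholipid genes were called higher and 4 lower, 14 of 29 sterol genes and 3, and 8 of 15 fatty acid synthesis genes and 1. Without replicate 1 the lower sterol genes were 1 and the lower fatty acid genes 2. Without replicate 2 the lower phospholipid genes were 2, the sterol genes 8 and 1, and no fatty acid gene was called lower. OLE1, the fatty acid desaturase, had 1.20 and 0.88 and rose 2.06-fold (adjusted p = 6.7e-06). FAA1, a fatty acid activating enzyme, rose 1.96-fold with log2 ratios of 0.98 and 0.97 (adjusted p = 1.81e-06). ITR1, the inositol permease, rose 1.80-fold with log2 ratios of 0.99 and 0.71. DPP1, a vacuolar lipid phosphatase and study target, had 1.52 on both arrays.

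Genes expressed in α cells but not in a cells held the deepest fall of all 5129 genes. Of the 5 such genes read, 4 were called lower and none higher, with a median of -0.91. MF(ALPHA)2, the minor gene of the α-factor pheromone, had -3.22 and -3.33 and fell 9.70-fold (limma adjusted p = 3.67e-10). SAG1, the α-agglutinin that binds a cells, had -1.80 and -1.82 and fell 3.51-fold (adjusted p = 1.95e-08). STE3, the receptor for a-factor, had -0.82 and -1.0 and fell 1.88-fold (adjusted p = 5.09e-06). MF(ALPHA)1, the major pheromone gene, was at 0.27 and 0.14 and was not called, though it was called higher with print-tip loess (0.25) and with median centring (0.28).

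The pheromone response list held 11 of 23 genes called lower and 4 higher, with a median of -0.14. SST2, which switches off the pheromone G protein, had -1.52 and -1.49 and fell 2.84-fold (limma adjusted p = 1.08e-07). STE12, the activator of mating genes, had -0.78 and -0.65 and fell 1.64-fold (adjusted p = 2.28e-05). TEC1, its partner in filamentous growth, fell 1.49-fold with log2 ratios of -0.52 and -0.62, and GPA1, the alpha subunit of the G protein, 1.37-fold with log2 ratios of -0.41 and -0.50. Those called higher were small, the list's highest mean being 0.32, and 2 were left without either replicate.

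**Figure D4:**
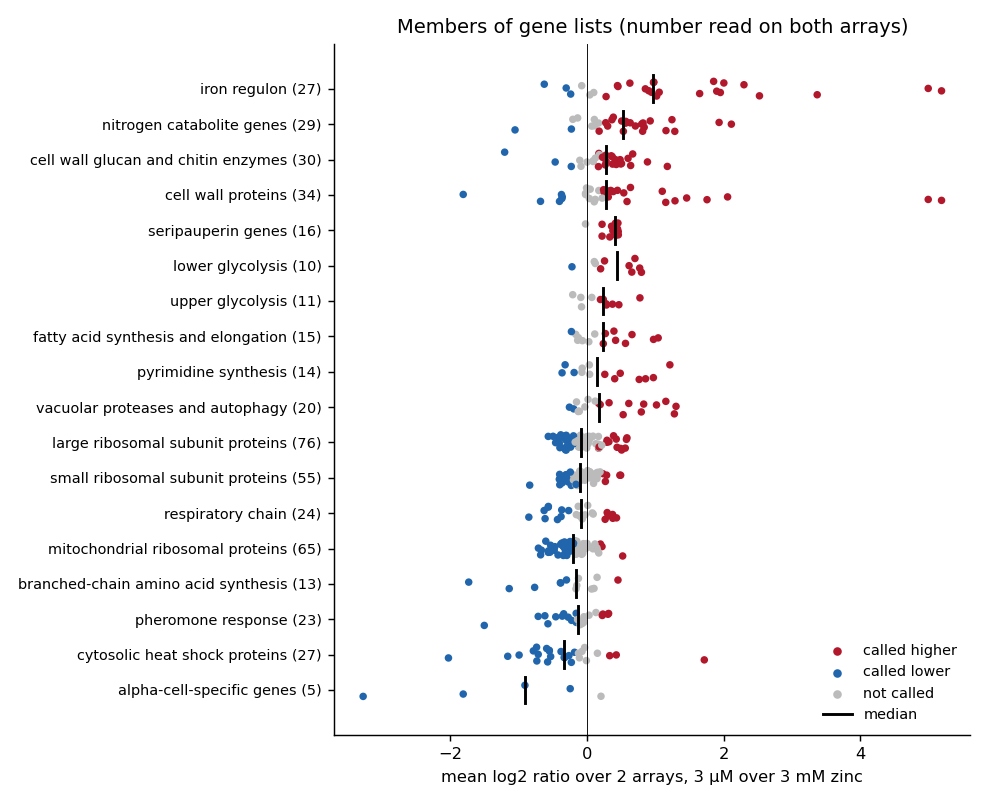
Mean log2 ratio over the 2 arrays of each member of 18 gene lists, with the number read on both arrays in brackets; red, blue and grey points were called higher, lower or not called by limma and the black bar is the median. The iron list (median 0.97) and the nitrogen list (0.53) lie to the right, the chaperone list (-0.33) and the α-cell list (-0.91) to the left.

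Of 22 genes of cyclins and the cell cycle 10 were called lower and 5 higher, with a median of -0.11, which without replicate 1 were 5 and 3. The paralogous mitotic cyclins went opposite ways. CLB1 had 0.87 and 1.04 and rose 1.93-fold (limma adjusted p = 6.4e-06), and CLB2 had -1.07 and -0.97 and fell 2.02-fold (adjusted p = 3.09e-06). SWI5, an activator of genes at the end of mitosis, fell 1.34-fold with log2 ratios of -0.48 and -0.38. AMN1, a daughter cell protein that blocks exit from mitosis, fell 1.79-fold with log2 ratios of -0.99 and -0.68. DSE1, of daughter cell separation, rose 1.58-fold with log2 ratios of 0.67 and 0.66. Of 11 histone genes 5 were called higher and 3 lower, HTA1 being the highest with a mean of 0.71. Of 31 DNA replication genes 22 were not called, 5 were higher (16.1%) and 4 lower (12.9%).

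Seripauperin (PAU) genes, a family of near-identical cell wall proteins at chromosome ends, had 15 of 16 members called higher and none lower. Their median was 0.42 and their highest 0.46, so that none passed the fold rule. The median was 0.27 without replicate 1 and 0.55 without replicate 2, and the 16 are not independent readings since the copies share sequence. The COS genes, also near chromosome ends, had 5 of 10 higher with a median of 0.18, but none of these was called without replicate 1. Of these 10 COS genes 5 are study targets, without which the median was 0.13. Among the 10 outermost genes of each chromosome end, 17 of 203 read passed the fold rule upwards (8.37%) and 4 downwards (1.97%), against 206 (4.46%) and 92 (1.99%) of 4616 other genes. Without the study's targets the rises were 9 of 190 (4.74%) and 162 of 4554 (3.56%). The median of the outermost genes was 0.04.

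Transporters for drugs and polyamines had 11 of 22 called higher and 3 lower, the 11 becoming 7 without replicate 1 and the 3 becoming 1 without replicate 2. TPO2 and TPO3, polyamine exporters that resemble each other, rose 2.63-fold with log2 ratios of 1.5 and 1.29 (limma adjusted p = 1.32e-06) and 2.28-fold with log2 ratios of 1.26 and 1.11 (adjusted p = 3.96e-06). PDR5, a drug efflux pump, rose 1.90-fold with log2 ratios of 1.10 and 0.76. TPO4 was lower, as given above. PIG2, a study target, and GAC1, which bind the phosphatase that acts on glycogen synthase, had means of 1.66 and 1.16. The trehalose and glycogen list as a whole had 3 of 15 higher (20%) and 5 lower (33.3%), against 25.7% and 24.9% of all genes. Fewer were called lower with either array left out. Among 22 phosphate regulon genes 5 were higher (22.7%) and 7 lower (31.8%), near these shares of all genes, with no mean outside -0.50 to 0.61. Both phosphate counts were smaller with either array left out.

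Genes without a known process on the array's annotation made up 2207 of the 5129, and of these 100 passed the rule upwards (4.53%) and 38 downwards (1.72%), near the 4.64% and 1.93% of all genes. The 300 reading frames not named in the reference contributed 14 (4.67%) and 3 (1%). By signal, in 4 groups of equal size from the dimmest to the brightest genes, 23, 50, 63 and 102 passed upwards and 9, 20, 31 and 39 downwards. Of the genes whose Cy5 signal was not well above background on either array 427 lay in the dimmest group and 1 in the next. Among the 238 genes that passed upwards, 12 had such a dim Cy3 signal, and among the 99 that passed downwards 5 had such a dim Cy5 signal. Where a fold is given for such a gene it is the bound, which was computed apart from the fitted change and lies below it for the genes named.

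The changes were then set against those with Zap1TC in zinc-replete cells, over 4992 genes read on all 4 arrays. A difference between the experiments was called for 1332 genes (26.7%) where the LZM ratio was higher and 1083 genes (21.7%) where it was lower. The media, carbon sources and plasmids differ as well as zinc, and their parts in a difference cannot be told apart. Of the 236 genes higher under zinc limitation by the fold rule, 134 were also called higher with Zap1TC, 33 were called lower and 69 were not called. Of the 97 lower genes, 57 were also called lower, 13 were called higher and 27 were not called. The share of all genes called with Zap1TC was not counted, so these overlaps lack a background. With the fold rule applied to Zap1TC as well, 318 of the 4992 genes passed upwards and 305 downwards. Of the 236, 77 passed upwards and 7 downwards with Zap1TC. Of the 97, 25 passed downwards and 3 upwards. Many of the study's targets were chosen by a rise with Zap1TC on these same arrays, some also by a rise in LZM. The overlap of rises is therefore partly fixed by that choice of targets, and it was not counted without them. The difference itself was called for 193 of the 236 and for 79 of the 97, and in 170 and 74 of these the change under zinc limitation was the further one. These genes were picked by the same LZM values that enter the difference, so these last counts are largely fixed by that choice. The same holds below for genes named for their LZM change.

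Iron genes were among those that differed. Their median was 0.17 with Zap1TC, and 19 of 26 were called higher in the LZM comparison than with Zap1TC, 3 lower. The 5 leading members were called higher in both experiments, with the difference called for each. FIT2 was at a mean of 5.19 against 0.68 with Zap1TC, FIT3 at 4.99 against 1.24, TIS11 at 3.37 against 2.28, ARN2 at 2.52 against 0.45 and FRE4 at 2.3 against 0.42. Other members were not called with Zap1TC: FET3 was at 2.0 against 0.16 and FRE1 at 1.95 against -0.04 (limma adjusted p of the difference 1.9e-06 and 1.1e-06). For nitrogen genes the median with Zap1TC was -0.000948, and 17 of 29 were called higher in the LZM comparison than with Zap1TC, 3 lower. GAP1 was at 1.93 against 1.04, PUT4 at 1.24 against 0.88 and MEP2 at 1.28 against 0.31, each called higher in both experiments and further in LZM. DAL5 was at 1.16 against -0.01. Opposite signs were found for DIP5, at 2.11 against -0.64 (adjusted p 8.5e-07), and GLN1, at 0.92 against -1.47 (adjusted p 1.4e-06).

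Chaperones also differed: 17 of 26 were called lower in LZM than with Zap1TC and 2 higher. BTN2 had a mean of -2.03 against 0.21 (limma adjusted p of the difference 8.2e-07), and STI1 -0.58 against 0.70 (adjusted p 6.9e-06). HCH1 was lower in both, at -0.99 and -0.34, with a difference called, and HSP26 was higher in both, at 1.72 and 1.86, with none called. In the mating genes, MF(ALPHA)2 was lower in both, at -3.28 and -1.56, with a difference called (adjusted p 1.6e-06), and MF(ALPHA)1 was at 0.20 against -1.25. STE3, at -0.91 and -1.02, had no difference called. Ribosomal protein genes stood far lower with Zap1TC, with medians of -0.76 and -0.78 for the small and large subunits, against -0.10 and -0.09 in LZM. A difference with the LZM ratio above that with Zap1TC was called for 48 of 54 and 61 of 74. Among enolases, ENO1 was at 0.70 against 2.06 and ENO2 at 0.66 against 1.98. YGP1 had opposite signs, 2.06 against -1.04 (adjusted p 2.7e-08), as had TPO4, -1.03 against 0.69 (adjusted p 2.6e-05), and CLB1, 0.95 against -0.71 (adjusted p 3.2e-06).

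**Figure D5:**
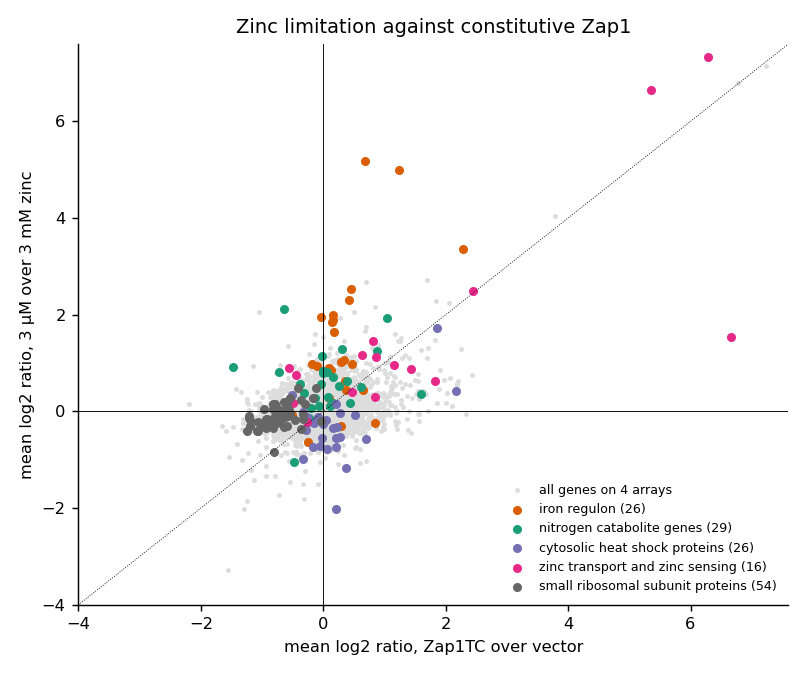
Mean log2 ratio of Zap1TC over vector (horizontal axis) against that of 3 µM over 3 mM zinc (vertical axis) for the 4992 genes read on all 4 arrays, with 5 gene lists in colour and equal ratios on the dotted line. Most iron genes lie above the line and most chaperones below it, and small-subunit ribosomal genes cluster left of 0 near a Zap1TC median of -0.76; the ZAP1 point includes the plasmid's copy.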

How the data were processed

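Polyadenylated RNA was reverse-transcribed with dye-labelled nucleotides and hybridised to spotted 2-colour arrays of the whole yeast genome. The authors deposited, per spot, the mean and local background intensity of each channel, a ratio of Cy5 over Cy3 scaled by 1 factor per array and, in a second table, LOWESS-normalised log2 ratios without background subtraction. The image software is not given in the sources used here. From the intensities, background was corrected by normexp (offset 50), ratios were normalised within each array by loess (span 0.3) and the log2 ratios of a gene's spots were averaged, with limma 3.58.1 in R 4.3.3. No column outside the series was used (0 columns). A spot was well above background where it exceeded its background by 2.6 SD of the local background values of its array, and "at least" folds, on channel values after loess and Aquantile, set the dim channel on each array at the higher of its own value and the lowest signal well above background; they are open to dye bias. All 4 arrays entered 1 limma fit with a coefficient per experiment, since each has 2 arrays, and the number of arrays limits the precision. Gene names come from the files and from RefSeq (assembly R64).

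Named genes were the 20 largest rises and falls among limma calls changed at least 1.4-fold alike on both arrays and outside the study's target tables, up to 5 leading called members of each list, uncalled members where a pathway needs them, and strain markers. Further members of the lists, those of the carbon plot, and paralogs were named after their values were seen. The members and the 61 lists were chosen with earlier results of these data known. Gene lists not named in the text are not described. The alternatives were other background corrections and normalisations, the deposited log2 ratios, a filter on dim genes, each array left out, the LZM arrays alone, a replicate block, another variance prior and a 2-fold threshold. The procedure was tested on simulated data.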

Additional observations from a re-analysis of the deposited data

How the results depend on the processing

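The count of 238 genes higher by the fold rule became 536 with plain subtraction of the background, 157 with the deposited log2 ratios and 85 with a mean of at least 2-fold; the 99 lower genes became 386 with plain subtraction, 62 with no background correction and 22 at 2-fold. The cause was not tested. With 1 LZM array left out, the fold rule gave 244 to 286 higher and 106 to 133 lower, limma 980 to 1013 higher and 829 to 903 lower, against 1317 and 1276, and 1168 to 1175 genes above and 932 to 964 below Zap1TC, against 1332 and 1083. The replicate numbers are shared only as numbers between the experiments (the deviations of arrays numbered 1 correlated at -0.07 across genes), and with a replicate block limma called 1322 higher and 1273 lower, and 1341 above and 1093 below Zap1TC. Of the 175 called genes the text names, 13 lost the call under at least 1 alternative. The dim-gene filter or plain subtraction gave no value for 15 of the 175; of the other 160, 151 were called in the same direction under all alternatives, and of the 15, 11 under those that gave a value. The other settings kept these counts within 1.5 times. A planned search for promoter motifs was not run. MF(ALPHA)1, not called at 0.20, was called higher in the fit with the replicate block, and EMI2, at -0.21, lower. HIS3, at -0.31 and 0.32 on the arrays, was not called, but was called lower at -0.31 without replicate 2, and GLK1, not called at 0.07, was called lower at -0.31 without replicate 1 and higher at 0.45 without replicate 2.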
